A study of Mus musculus with 24 samples.

Results

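The peaks around 7 genes of plasminogen activation and coagulation were described in macrophages with and without the aryl hydrocarbon receptor (AhR), at rest and after LPS. The genes were Plau, Plaur, Plat, Serpinb2, F3, Thbs1 and F10. A peak, a stretch of open chromatin found by ATAC-seq, was taken when it overlapped the body of 1 of these genes or the 20 kb on either side, and it was given to the nearest of them. This gave 79 of the 184158 consensus peaks of the study, with 9 at Plau, 14 at Plaur, 10 at Plat, 18 at Serpinb2, 8 at F3, 8 at Thbs1 and 12 at F10. They measured 159 to 2796 bases, with a median of 695. By place, 7 lay over the start of the gene, 12 over another exon, 14 in an intron, 29 upstream and 17 downstream.

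Plasminogen is a blood protein that is cut into plasmin, a protease that dissolves fibrin and digests matrix. The cut is made by the urokinase encoded by Plau, which works at the cell surface bound to the receptor encoded by Plaur, and by the tissue-type activator encoded by Plat. Serpinb2 encodes PAI-2, a serpin that inhibits both activators and is a well-known product of stimulated macrophages. The other 3 genes are neither activators nor serpins: F3 encodes tissue factor, which starts coagulation with factor VII, F10 encodes factor X, the next protease in that cascade, and Thbs1 encodes thrombospondin-1, a matrix protein that binds cells and activates latent TGF-β. The set is therefore called here the plasminogen and tissue factor genes.

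Libraries came from bone marrow-derived macrophages (BMDMs) of C57/B6/J wildtype (WT) mice or of mice homozygous for a disrupted Ahr gene in all tissues (B6.129-Ahr tm1Bra/J, AhR-KO). There were 24 libraries, 6 for each genotype without stimulation (WT unstimulated, AhR-KO unstimulated) and 6 for each with LPS (WT LPS, AhR-KO LPS), which made 4 groups. All marrow was grown with 10 ng/ml GM-CSF and 2 ng/ml TGF-β, which makes the cells alveolar-like. LPS, a bacterial cell wall component, was given at 97 EU/ml on day 6 for 24 h, and the calcium ionophore A23187 followed at 5 µM for 10 min. The protocol in the labels is the same for all libraries, so it does not say whether unstimulated cultures also received the ionophore. Total counts in peaks ran from 8.54 M in WT unstimulated replicate 5 to 34.6 M in WT LPS replicate 3. Levels of peaks are given as CPM, counts per M counts of the library after scaling. Both WT libraries numbered 6 held few counts in the peaks at the start of chromosome Y. They had 21.3 and 6.89 per M counts of the library before scaling, against 104 or more in every other library. Leaving both out gave 25, 14, 31, 40 and 11 differentially accessible peaks of the plasminogen and tissue factor genes in the 5 comparisons below, against 24, 14, 33, 41 and 11 with all libraries. ATAC-seq reads all cells of a culture together, so a change in the share of cells with an open region cannot be told apart from a change in how open it is per cell.

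The cultures carried the marks of macrophages. Start peaks were present for 7 of 7 macrophage genes and 5 of 5 alveolar macrophage genes. Start peaks were also present for 2 of 4 neutrophil genes, 2 of 3 T cell genes, 2 of 3 dendritic cell genes, 1 of 2 mast cell genes, 2 of 2 stromal genes and 2 of 2 endothelial genes, and those without one included Ly6g, Elane, Cd3g, Cd209a and Cpa3. The summed level of the macrophage start peaks was 105.7 to 119 CPM per kb in WT unstimulated libraries, 123 to 175 in AhR-KO unstimulated, 95.9 to 110.3 in WT LPS and 94.1 to 134 in AhR-KO LPS, and no macrophage gene was called between genotypes. For the alveolar macrophage list the sum was 43.1 to 51.6 CPM per kb in WT and 62.2 to 76.5 in AhR-KO at rest, and 41.2 to 51.7 in WT and 50.1 to 64.7 in AhR-KO with LPS. Itgax, Car4 and Marco were the 3 of these 5 genes whose start peak was higher in AhR-KO at rest, while the start peaks of Ngp, Cd3e, Flt3 and Kit were lower in AhR-KO with and without LPS. With LPS, Csf1r, Camp and Cd3e were higher and Ngp, Mertk, Marco, Chil3 and Tek lower in both genotypes. Itgam, Cd68 and Zbtb46 were lower with LPS in AhR-KO only. The neutrophil sum went from 12.1 to 17.7 up to 17.9 to 26.5 CPM per kb in WT, and from 9.86 to 11.5 up to 20.5 to 25.6 in AhR-KO. The part of these differences in the genotype and LPS results below was not tested.

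The comparisons asked how AhR loss changed accessibility at rest and with LPS, how LPS changed it in each genotype, and whether the genotype effect differed between rest and LPS (the interaction). A peak was called a differentially accessible region (DAR) when its adjusted p did not exceed 0.05 and it changed 1.5-fold or more, with p-values from edgeR's quasi-likelihood test adjusted over all 174193 tested peaks. Of the 79 peaks, 78 passed the filter on low counts, and the exception was a short peak downstream of Serpinb2. LPS opened far more of these peaks than it closed. In WT, 27 of 78 (34.6%) were higher with LPS, against 25.4% of all tested peaks, and 6 (7.69%) were lower, against 21.6%. In AhR-KO, 33 (42.3%) were higher, against 27.3%, and 8 (10.3%) were lower, against 21.5%. The median log2 fold change with LPS was 0.31 over the 78 peaks in WT and 0.49 in AhR-KO, beside −0.01 and 0.05 over all tested peaks.

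Genotype moved fewer of them. In unstimulated AhR-KO cells, 15 peaks (19.2%) were higher than in WT, against 9.95% of all tested peaks, and 9 (11.5%) were lower, against 12.6%. Of the 15 higher peaks, 9 were given to F10, but only 3 of these 9 lay nearest to the start of F10, while 4 lay nearest to that of F7 and 2 to that of Proz. Among the 58 tested peaks whose nearest protein-coding start was that of their own gene, 7 were higher and 9 lower at rest, so the higher peaks no longer outnumbered the lower ones. With LPS, 11 (14.1%) were higher in AhR-KO, against 13.4%, and 3 (3.85%) were lower, against 13.1%. The same peak was called in the same direction in both genotype comparisons in 8 cases. The 6 shared higher peaks (6 of 15 and 6 of 11) comprised 2 of Plau, 2 of Plaur and 2 of F10, and the 2 shared lower peaks (2 of 9 and 2 of 3) were in Plat and Serpinb2. The interaction called 10 peaks (12.8%) as higher, against 5.83% of all tested peaks, and 1 (1.28%) as lower, against 4.58%. Higher means that the signed log2 fold change of AhR-KO over WT was greater with LPS than without. It also covers peaks that were lower in AhR-KO at rest and less so with LPS, such as the one 16 kb past the F3 start. Of the 10, 5 belonged to Serpinb2 and 3 to F3. No DAR was called in any comparison for 21 of the 78 peaks. This count and that of the shared calls were not made over all tested peaks, so they only describe the 78.

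**Figure D1:**
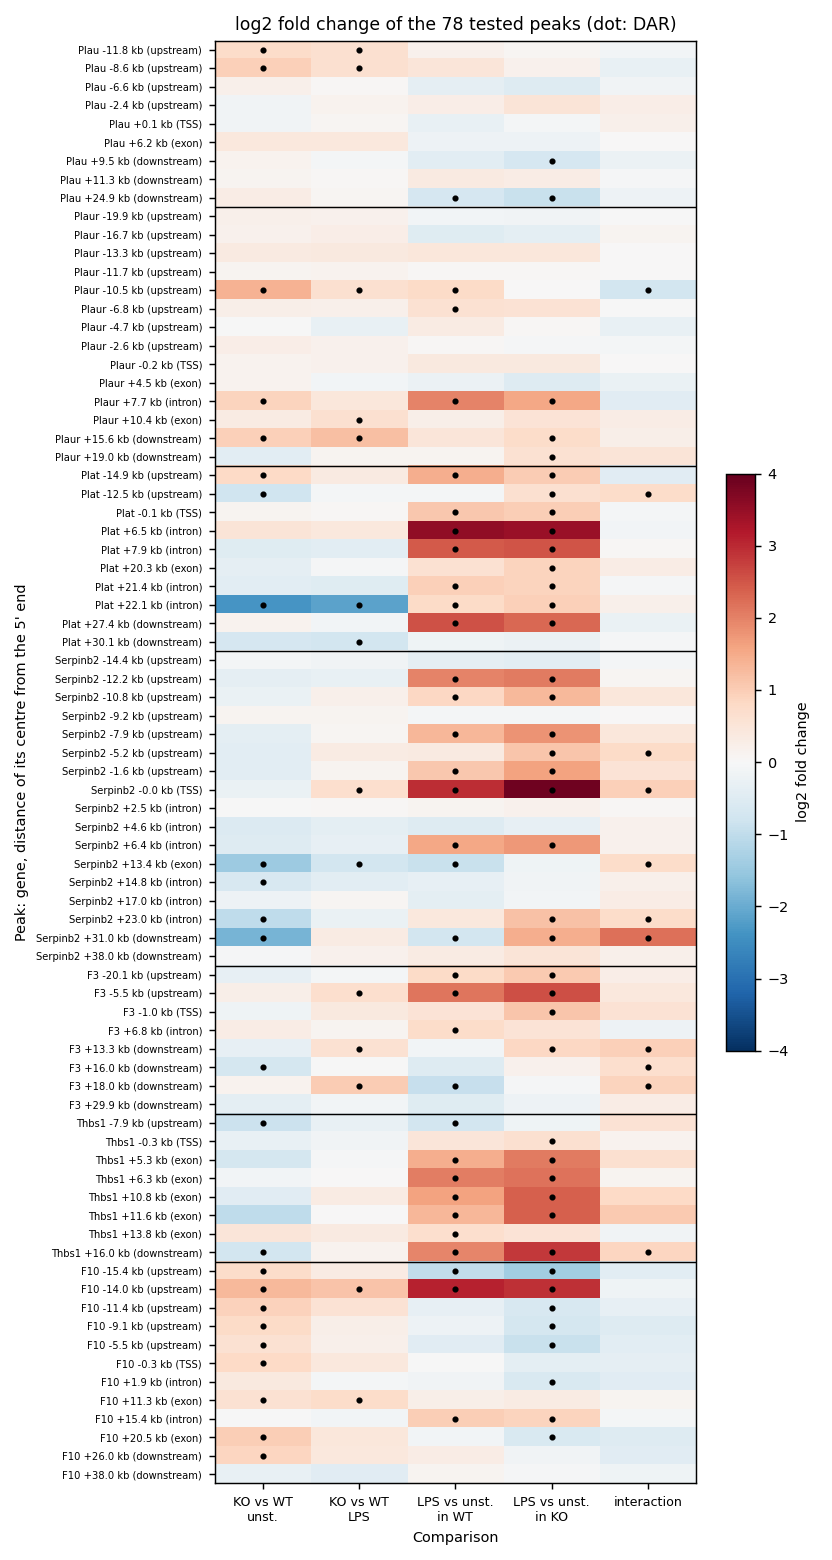
log2 fold changes of the 78 tested peaks (rows, ordered by gene and by the distance of the peak centre from the 5′ end in kb) in the 5 comparisons (columns), where red is higher in AhR-KO or with LPS, blue is lower, and a black dot marks a DAR. In WT and AhR-KO, LPS DARs take 7 and 9 of the 10 Plat rows, 7 and 6 of the 8 Thbs1 rows and 8 and 9 of the 17 Serpinb2 rows, and F10 holds 9 of the 15 peaks that were higher in unstimulated AhR-KO cells.

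The authors also called broad peaks in each library alone. A called broad peak overlapped 38 of the 79 regions in 6 of 6 WT unstimulated libraries and 43 in 6 of 6 AhR-KO unstimulated libraries, and these numbers were 52 and 55 in the WT LPS and AhR-KO LPS groups. The same count over all consensus peaks was not made, so these numbers only describe the 79 regions. The whole lists were longer with LPS too, at 106401 to 116364 peaks against 74654 to 107530 in WT and 102071 to 114556 against 90059 to 99381 in AhR-KO. LPS libraries were also deeper, at 25.1 to 34.6 M against 8.54 to 23.1 M counts in WT and 22.4 to 28.5 M against 18.9 to 25.7 M in AhR-KO, and the part of depth in these calls was not tested. The start of Serpinb2 had a called peak in 0 of 6 libraries of either unstimulated group and in 6 of 6 of either LPS group, as did the peak downstream of Thbs1. Over all libraries, 1300 of 1896 pairs of a region and a library had a call.

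The 7 start peaks set the frame for the genes one by one. Per kb of peak, the start of F10 had the highest mean level of the 7 in all 4 groups, at 29.4 CPM per kb in WT unstimulated. Serpinb2 had the lowest in both unstimulated groups, at 2.97 CPM per kb in WT, and with LPS in AhR-KO it stood at 37.4, beside 38.4 for F10, which is within the spread of the F10 libraries. Of the 7, F10 was called between genotypes at rest and Serpinb2 with LPS. Over the start peaks of all 12992 protein-coding genes that had one, 2.14% were higher and 3.82% lower in AhR-KO at rest, and 1.52% and 5.2% with LPS. With LPS the start peaks of Plat and Serpinb2 were called higher in WT, and those of Plat, Serpinb2, F3 and Thbs1 in AhR-KO. The shares for all start peaks called higher with LPS were 4.05% in WT and 4.57% in AhR-KO.

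**Figure D2:**
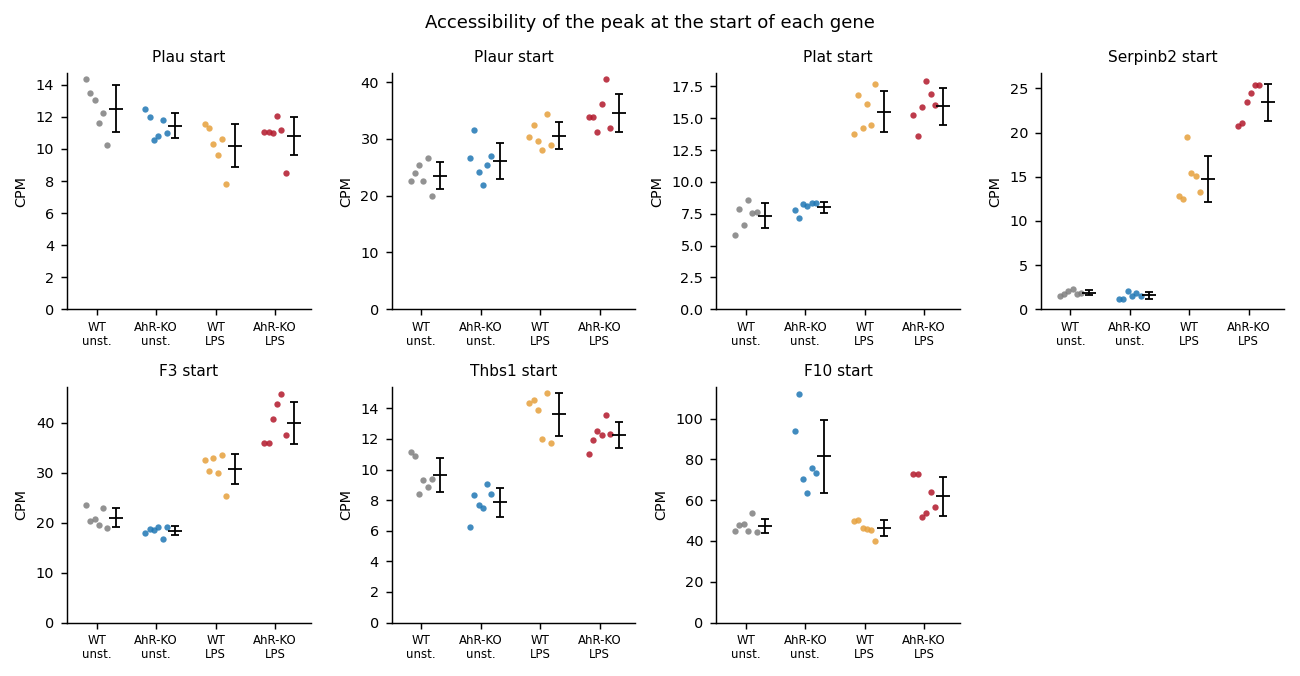
Level of the peak over the start of each of the 7 genes, in CPM from 0, for the 6 libraries of each group (points), with the mean and SD beside them (black). Within a genotype, LPS libraries stand clear of unstimulated ones at Plat, Serpinb2, F3 and Thbs1, AhR-KO stands above WT at F10 without overlap, and the Plau groups overlap throughout.

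Plau, the urokinase gene (chr14:20836660-20843385, + strand), kept its start open in all groups. The start peak (chr14:20836101-20837331) ran from 10.3 to 14.4 CPM with a median of 12.6 in WT unstimulated, from 10.5 to 12.5 with a median of 11.4 in AhR-KO unstimulated, from 7.82 to 11.5 with a median of 10.5 in WT LPS and from 8.51 to 12.04 with a median of 11.1 in AhR-KO LPS. All 4 groups overlapped. The largest difference was with LPS in WT, a log2 fold change of −0.29 ± 0.09 (SE, n = 6 against 6, edgeR adjusted p = 0.00588) that was under the fold threshold. No genotype difference was called, with log2 fold changes of −0.13 ± 0.09 at rest and 0.08 ± 0.09 with LPS.

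The genotype difference at Plau lay upstream. The peak 8.64 kb before the start (chr14:20827257-20828774) had 2.91 to 3.84 CPM (median 3.43) in WT unstimulated and 5.97 to 8.14 (median 6.36) in AhR-KO unstimulated. With LPS it had 4.02 to 5.54 (median 4.74) in WT and 6.47 to 8.43 (median 7.45) in AhR-KO. AhR-KO libraries were above all WT libraries in both treatments. AhR-KO was 1.94-fold higher at rest (log2 0.96 ± 0.11, adjusted p = 2.98e-09) and 1.57-fold higher with LPS (log2 0.65 ± 0.09, adjusted p = 5.71e-07), and the interaction was not called (−0.30 ± 0.14, adjusted p = 0.143). A broad peak was called there in 0 of 6 WT unstimulated libraries and in 6 of 6 of each other group. The neighbouring peak 11.8 kb before the start was also higher in AhR-KO in both treatments, by 0.75 and 0.63 on the log2 scale. LPS lowered 1 Plau peak in both genotypes, 24.9 kb downstream of the start (chr14:20861121-20862059), with WT at a mean of 6.23 ± 0.55 CPM (SD) before and 3.90 ± 0.26 after, and AhR-KO at 7.61 ± 0.71 and 4.12 ± 0.66 (adjusted p = 5.54e-07 and 1.06e-09).

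Plaur encodes the urokinase receptor, a glycolipid-anchored protein that holds the enzyme at the cell surface (chr7:24462484-24475968, + strand). Its start peak rose with LPS by less than the fold threshold in both genotypes. It ran from 20.01 to 26.6 CPM (median 23.3) in WT unstimulated, from 21.9 to 31.5 (median 26.1) in AhR-KO unstimulated, from 28.1 to 34.4 (median 29.9) in WT LPS and from 31.2 to 40.5 (median 33.8) in AhR-KO LPS. WT groups did not overlap between treatments, and the AhR-KO groups did. The log2 fold changes with LPS were 0.38 ± 0.08 in WT and 0.41 ± 0.07 in AhR-KO (adjusted p = 3.79e-05 and 1.14e-05). Genotypes overlapped at rest and with LPS, at 0.16 ± 0.08 and 0.18 ± 0.07.

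Inside Plaur, an intron peak 7.67 kb past the start (chr7:24469247-24471064) responded to both variables. It had 3.47 to 4.36 CPM (median 4.12) in WT unstimulated, 5.27 to 9.91 (median 7.15) in AhR-KO unstimulated, 13.7 to 19.03 (median 15.8) in WT LPS and 20.2 to 23.4 (median 21.6) in AhR-KO LPS. The 4 groups did not overlap and stood in that order. LPS raised it 3.93-fold in WT and 2.89-fold in AhR-KO (adjusted p = 9.88e-17 and 2.8e-15). AhR-KO exceeded WT 1.86-fold at rest (adjusted p = 3.67e-07) and 1.37-fold with LPS, where the difference passed the p threshold (0.000245) but not the fold threshold.

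With LPS, the largest genotype difference among the Plaur peaks was downstream. The peak 15.6 kb past the start (chr7:24476957-24479162), whose nearest protein-coding start is that of the adhesion gene Cadm4, had 5.61 to 7.06 CPM (median 6.14) in WT unstimulated and 8.91 to 16.3 (median 12.02) in AhR-KO unstimulated. With LPS it had 6.14 to 12.6 (median 8.24) in WT and 15.2 to 29.9 (median 18.7) in AhR-KO. No WT library reached the AhR-KO libraries of the same treatment. AhR-KO was higher by 0.96 ± 0.18 on the log2 scale at rest and by 1.2 ± 0.16 with LPS (adjusted p = 0.000117 and 1.18e-06). LPS raised it in AhR-KO by 0.73 ± 0.16, a call that was lost without AhR-KO LPS replicate 5, its highest library (0.58).

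A peak 10.5 kb upstream of the Plaur start (chr7:24451716-24452314), which lies within the neighbouring gene Irgc1, was the only 1 of the 78 called lower in the interaction. It had 3.30 to 5.40 CPM (median 3.94) in WT unstimulated, 8.69 to 12.4 (median 10.5) in AhR-KO unstimulated, 5.05 to 7.92 (median 7.28) in WT LPS and 9.46 to 11.6 (median 10.96) in AhR-KO LPS. LPS raised it in WT (0.77 ± 0.12, adjusted p = 8.99e-07), where the groups overlapped, and the value in AhR-KO was 0.02 ± 0.11. The genotype difference was 1.38 ± 0.12 at rest and 0.64 ± 0.11 with LPS, and the change between them was −0.75 ± 0.16 (adjusted p = 0.00138). The call with LPS was lost without WT LPS replicate 3 (0.56).

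Plat encodes the tissue-type plasminogen activator, a secreted protease (chr8:22757727-22782844, + strand). LPS opened most peaks of the locus. In WT 7 of its 10 peaks were higher, by 0.75 to 3.54 on the log2 scale. In AhR-KO 9 of 10 were higher, by 0.65 to 3.44, and 0 were lower in either genotype. These shares of 70% and 90% stand beside 25.4% (WT) and 27.3% (AhR-KO) of all tested peaks. The peaks 20.3 and 21.4 kb past the start were low, with WT unstimulated means of 0.434 and 0.294 CPM. A broad peak was called there in 2 and 1 of the 24 libraries. The start peak (chr8:22757118-22758154) ran from 5.81 to 8.56 CPM (median 7.62) in WT unstimulated, from 7.14 to 8.35 (median 8.17) in AhR-KO unstimulated, from 13.8 to 17.7 (median 15.3) in WT LPS and from 13.6 to 17.9 (median 15.97) in AhR-KO LPS. All LPS libraries were above all unstimulated ones, and the genotypes overlapped. The rise was 2.10-fold in WT and 1.99-fold in AhR-KO (adjusted p = 3.87e-13 and 8.79e-13), with genotype log2 fold changes of 0.12 ± 0.09 at rest and 0.04 ± 0.08 with LPS.

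The wider LPS changes at Plat were inside and behind the gene. The peak 27.4 kb from the start lay just past the 3′ end (chr8:22784060-22786185), and its nearest protein-coding start is that of Ap3m2, not Plat. This peak went from 2.18 to 3.02 CPM (median 2.81) in WT unstimulated to 13.3 to 20.8 (median 14.1) in WT LPS. In AhR-KO it went from 2.37 to 3.52 (median 2.996) to 13.4 to 16.5 (median 14.4). These were 5.78-fold and 4.86-fold rises (adjusted p = 1.12e-19 and 3.35e-19), and genotypes overlapped in both treatments. An intron peak 6.51 kb past the start (chr8:22763814-22764668), singled out after its values were seen, rose in WT from a mean of 0.387 ± 0.223 to 4.17 ± 1.01 CPM, and in AhR-KO from 0.511 ± 0.146 to 5.55 ± 1.35. Its log2 fold changes of 3.54 and 3.44 were the highest of the 10 Plat peaks, and a broad peak was called there in 0 of 12 unstimulated and 12 of 12 LPS libraries.

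Plat also held the region with the lowest AhR-KO to WT ratio of the 78 tested peaks. It is an intron peak 22.1 kb past the start, near the 3′ end of the gene (chr8:22779451-22780256). It had 0.814 to 2.03 CPM (median 1.42) in WT unstimulated and 0.108 to 0.391 (median 0.323) in AhR-KO unstimulated, and 1.23 to 3.62 (median 2.45) in WT LPS and 0.359 to 0.770 (median 0.582) in AhR-KO LPS. No AhR-KO library reached a WT library of the same treatment. WT was 5.13-fold higher at rest and 4.43-fold higher with LPS (log2 −2.36 ± 0.29 and −2.15 ± 0.22 for AhR-KO against WT, adjusted p = 2.22e-08 and 1.01e-09). LPS raised it in both genotypes, by 0.75 ± 0.20 and 0.96 ± 0.32 (adjusted p = 0.00147 and 0.00819), with overlap between treatments in both. Levels were low, and a broad peak was called there in 1 of 6 unstimulated and 5 of 6 LPS libraries of WT and in 0 of 12 of AhR-KO. The sequence of its central 300 bases (mm10, + strand) is shown because it had the largest loss in AhR-KO. This stretch held no match to any of the 6 motifs searched, which are given with their shares further on, but the whole peak held 2 matches to the AhR-ARNT core outside it.
Plat intron region, chr8:22779704-22780003: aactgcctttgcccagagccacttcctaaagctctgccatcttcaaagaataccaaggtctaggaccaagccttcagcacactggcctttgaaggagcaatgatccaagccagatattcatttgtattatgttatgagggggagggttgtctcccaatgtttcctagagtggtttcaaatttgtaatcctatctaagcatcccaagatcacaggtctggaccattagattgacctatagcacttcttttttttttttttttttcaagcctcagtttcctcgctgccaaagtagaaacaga

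Upstream of Plat, neighbouring peaks went opposite ways with genotype at rest. The peak 14.9 kb before the start (chr8:22742439-22743228) had a WT mean of 3.21 ± 0.37 CPM and an AhR-KO mean of 5.60 ± 0.36, with no overlap (log2 0.81 ± 0.13, adjusted p = 2.67e-06), and it rose with LPS in both genotypes (1.45 ± 0.12 and 1.01 ± 0.11). The peak 12.5 kb before the start (chr8:22744882-22745493) had 7.51 ± 1.87 in WT and 4.40 ± 1.14 in AhR-KO, with overlap (−0.79 ± 0.14, adjusted p = 2.72e-05). With LPS the second peak stood at 7.27 ± 0.63 and 6.96 ± 0.78, and its interaction was called (0.72 ± 0.19, adjusted p = 0.00914). Its LPS rise in AhR-KO, 0.65 ± 0.14, was not called without AhR-KO unstimulated replicate 5 (0.58).

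**Figure D3:**
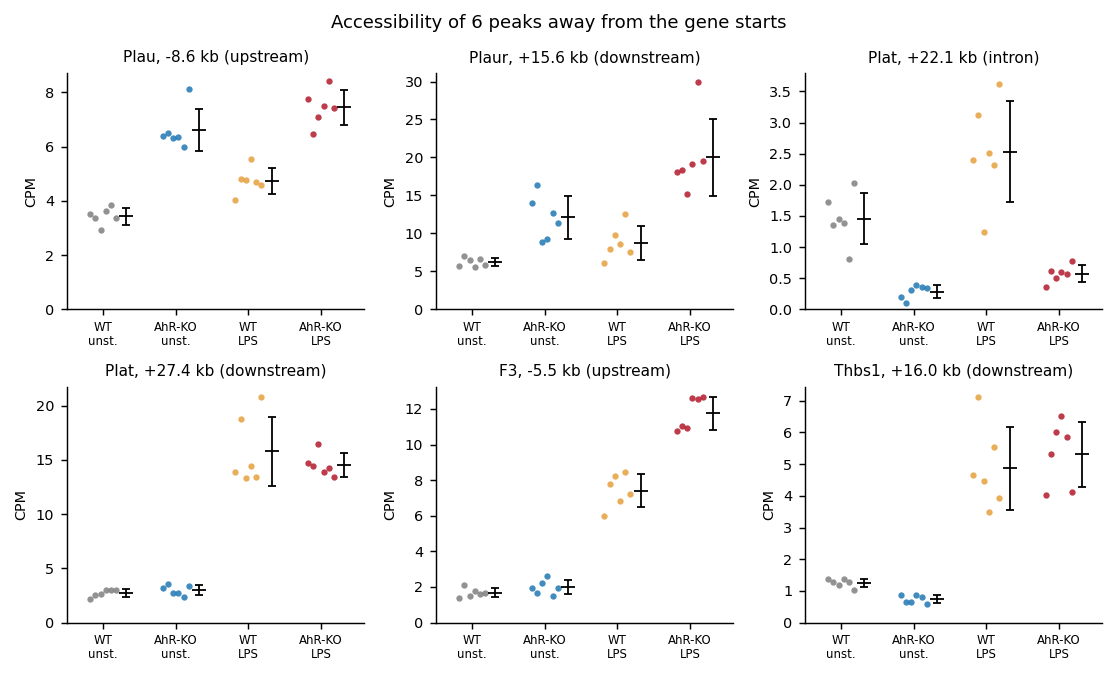
Level in CPM, from 0, of 6 peaks away from the gene starts in the 6 libraries of each group (points), with the mean and SD beside them (black). Peaks are named by the gene they were given to and the distance from its 5′ end. AhR-KO exceeds WT upstream of Plau and downstream of Plaur, WT exceeds AhR-KO in the last part of Plat, and the remaining 3 peaks are low at rest and high with LPS.

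Serpinb2, the PAI-2 gene, sits on chromosome 1 (chr1:107511423-107535478, + strand), and in AhR-KO its start had the highest LPS fold change of the 78 peaks. The start peak (chr1:107511066-107511692) had 1.52 to 2.25 CPM (median 1.79) in WT unstimulated and 1.18 to 2.11 (median 1.502) in AhR-KO unstimulated. With LPS it had 12.5 to 19.5 (median 14.2) in WT and 20.8 to 25.4 (median 24.0) in AhR-KO. The unstimulated groups overlapped, and with LPS every AhR-KO library was above every WT library. LPS raised the start 7.81-fold in WT (log2 2.96 ± 0.13, adjusted p = 7.24e-21) and 14.97-fold in AhR-KO (log2 3.90 ± 0.13, adjusted p = 7.82e-25). The genotype difference was −0.27 ± 0.17 at rest (adjusted p = 0.196) and 0.66 ± 0.10 with LPS (adjusted p = 5.38e-07), and the interaction of 0.94 ± 0.19 passed its own test (adjusted p = 0.00091).

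The 250 bases before the Serpinb2 start are shown because this was the start with the strongest LPS response (RefSeq, GRCm38, the assembly of mm10, + strand). Capitals mark 1 match to the C/EBP motif TTGCNNAA and 1 to the AP-1 motif TGANTCA, on either strand.
Serpinb2 promoter, chr1:107511173-107511422: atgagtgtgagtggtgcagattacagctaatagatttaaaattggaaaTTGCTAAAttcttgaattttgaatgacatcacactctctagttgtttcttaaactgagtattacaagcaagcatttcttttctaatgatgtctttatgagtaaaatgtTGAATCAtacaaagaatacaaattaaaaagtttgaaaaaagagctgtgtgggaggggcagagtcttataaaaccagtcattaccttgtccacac

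LPS DARs made up 47.1% of the tested Serpinb2 peaks in WT and 52.9% in AhR-KO, near the 47.0% and 48.8% of all tested peaks called in either direction. In WT 6 of the 17 tested were higher, by 0.82 to 2.96, and 2 were lower, while in AhR-KO 9 were higher, by 1.11 to 3.90, and 0 were lower. The peak 5.2 kb upstream (chr1:107505831-107506615) ran from 11.04 to 14.6 CPM (median 12.9) in WT unstimulated, from 8.38 to 11.02 (median 9.50) in AhR-KO unstimulated, from 15.9 to 17.6 (median 16.4) in WT LPS and from 18.8 to 22.9 (median 20.95) in AhR-KO LPS. The genotypes did not overlap in either treatment, and their order turned. AhR-KO minus WT was −0.43 ± 0.08 at rest and 0.33 ± 0.07 with LPS, both under the fold threshold, and the interaction was called at 0.76 ± 0.11 (adjusted p = 6.96e-06).

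At rest, 4 Serpinb2 peaks were lower in AhR-KO and 0 were higher, and all 4 lay in the second part of the gene or behind it. At the exon peak 13.4 kb past the start (chr1:107524502-107525061) WT unstimulated libraries had 1.74 to 4.62 CPM (median 4.34) and AhR-KO unstimulated libraries 1.13 to 2.19 (median 1.38). With LPS it had 1.84 to 2.54 (median 2.01) in WT and 1.004 to 1.91 (median 1.198) in AhR-KO. The genotypes overlapped in both treatments through replicate 5 libraries, of which the WT unstimulated one was lowest in its group and the AhR-KO ones were highest in theirs. AhR-KO was lower by 1.46 ± 0.18 at rest and by 0.73 ± 0.18 with LPS (adjusted p = 2.59e-08 and 0.00101). Its interaction (0.72 ± 0.25, adjusted p = 0.0486) was not called in 16 of the 24 fits that left out 1 library, at 0.57 in the lowest case. It held only without WT unstimulated replicate 3 or 5, AhR-KO unstimulated replicate 5, WT LPS replicate 2, 3 or 4, or AhR-KO LPS replicate 1 or 6. Downstream, the peak 31 kb past the start (chr1:107542154-107542724), singled out after its values were seen, was the only 1 of the 78 called in opposite directions by LPS in the 2 genotypes. It stood at 1.19 ± 0.47 and 0.727 ± 0.292 CPM in WT without and with LPS, and at 0.326 ± 0.088 and 0.913 ± 0.223 in AhR-KO, and its interaction was 2.20 ± 0.40 (adjusted p = 0.000212). The WT groups overlapped (−0.73 ± 0.25, adjusted p = 0.012), and the AhR-KO groups did not. A broad peak was called there in 2 of the 24 libraries. The calls at this low peak were not followed one by one through the other settings.

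F3 encodes tissue factor, the membrane receptor for factor VII (chr3:121723537-121735048, + strand). Its start peak (chr3:121721288-121723805) ran from 18.9 to 23.5 CPM (median 20.6) in WT unstimulated, from 16.8 to 19.2 (median 18.6) in AhR-KO unstimulated, from 25.3 to 33.6 (median 31.4) in WT LPS and from 36.01 to 45.8 (median 39.1) in AhR-KO LPS. LPS libraries were above all unstimulated ones, and AhR-KO LPS libraries were above all WT LPS ones. LPS raised it 2.17-fold in AhR-KO (log2 1.12 ± 0.07, adjusted p = 1.99e-16) and 1.47-fold in WT, just under the fold threshold (log2 0.56 ± 0.07, adjusted p = 1.7e-08). The interaction was 0.56 ± 0.10 (adjusted p = 0.00019), also under it, as was the genotype difference with LPS of 0.38 ± 0.07. The WT value passed the fold threshold without WT unstimulated replicate 1 or without WT LPS replicate 6, reaching 0.61 at most, and the interaction did so without WT LPS replicate 5 or AhR-KO LPS replicate 1 or 2, reaching 0.59.

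The peak 5.45 kb upstream of the F3 start (chr3:121717740-121718434) had the largest LPS change of the 8 F3 peaks. It had 1.39 to 2.09 CPM (median 1.66) in WT unstimulated and 1.504 to 2.61 (median 1.94) in AhR-KO unstimulated, and 5.96 to 8.48 (median 7.50) in WT LPS and 10.8 to 12.7 (median 11.8) in AhR-KO LPS. Unstimulated genotypes overlapped and LPS genotypes did not. The rise was 4.37-fold in WT and 5.91-fold in AhR-KO (adjusted p = 4.81e-17 and 1.29e-20). AhR-KO was 1.59-fold higher with LPS (log2 0.67 ± 0.10, adjusted p = 7.87e-07), but the interaction was not called (0.44 ± 0.18, adjusted p = 0.0888).

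The 250 bases before the F3 start and the central 300 bases of this upstream peak are shown because both regions stood higher in AhR-KO LPS than in WT LPS libraries without overlap (mm10, + strand, the promoter from RefSeq). Capitals mark AP-1 matches, 2 in the promoter and 1 in the upstream peak, and 1 C/EBP match in the upstream peak.
F3 promoter, chr3:121723287-121723536: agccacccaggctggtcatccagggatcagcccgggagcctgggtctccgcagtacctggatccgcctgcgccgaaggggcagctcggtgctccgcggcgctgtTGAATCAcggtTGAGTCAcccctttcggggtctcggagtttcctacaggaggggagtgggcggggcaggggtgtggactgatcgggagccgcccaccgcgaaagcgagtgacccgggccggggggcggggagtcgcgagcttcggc
F3 upstream peak, chr3:121717938-121718237: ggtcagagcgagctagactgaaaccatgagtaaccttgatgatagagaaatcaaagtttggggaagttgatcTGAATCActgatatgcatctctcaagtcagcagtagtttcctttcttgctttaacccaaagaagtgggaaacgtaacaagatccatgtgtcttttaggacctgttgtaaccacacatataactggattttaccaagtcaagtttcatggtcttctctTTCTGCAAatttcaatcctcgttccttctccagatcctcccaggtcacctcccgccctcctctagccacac

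Downstream of F3, 3 neighbouring peaks passed the interaction test, each with a higher AhR-KO to WT ratio with LPS than at rest. The peak 13.3 kb past the start (chr3:121736022-121737670) had means of 4.42 ± 1.21 and 3.42 ± 0.20 CPM in unstimulated WT and AhR-KO and of 4.002 ± 0.45 and 6.14 ± 1.26 with LPS (interaction 0.95 ± 0.19, adjusted p = 0.00079). Its genotype call with LPS was lost without WT LPS replicate 6 or without AhR-KO LPS replicate 4 or 5, at 0.53 in the lowest case. The peak 16 kb past the start (chr3:121738627-121740419) was lower in AhR-KO at rest, with 6.63 to 11.4 CPM (median 9.61) in WT and 4.88 to 6.33 (median 5.71) in AhR-KO, which did not overlap (−0.70 ± 0.10, adjusted p = 7.84e-07). With LPS that difference was −0.03 ± 0.10, and the interaction was 0.67 ± 0.14 (adjusted p = 0.00124). At 18 kb (chr3:121741403-121741646) a short peak of at most 1.26 CPM in any library fell with LPS in WT by 0.93 ± 0.22 (adjusted p = 0.000354), and its interaction (0.89 ± 0.29, adjusted p = 0.0329) was not called in 7 of the 24 fits that left out 1 library, at 0.78 in the lowest case. These were the fits without WT unstimulated replicate 1 or 3, AhR-KO unstimulated replicate 3 or 6, WT LPS replicate 1 or 3, or AhR-KO LPS replicate 1.

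F10, the factor X gene (chr8:13037308-13056676, + strand), had 9 of its 12 window peaks higher in AhR-KO at rest, by 0.62 to 1.28 on the log2 scale, and 0 were lower. This share of 75% stands beside 9.95% of all tested peaks. The start peak (chr8:13036208-13037815) had 44.5 to 53.5 CPM (median 46.4) in WT unstimulated and 63.6 to 112 (median 74.6) in AhR-KO unstimulated. With LPS it had 39.8 to 50.5 (median 46.01) in WT and 51.5 to 72.8 (median 60.2) in AhR-KO. AhR-KO libraries were above all WT libraries in both treatments. The difference was 1.73-fold at rest (log2 0.79 ± 0.11, adjusted p = 3.27e-06) and 1.34-fold with LPS (log2 0.42 ± 0.11, adjusted p = 0.00295), which was under the fold threshold, and the interaction of −0.37 ± 0.16 did not pass (adjusted p = 0.114). The log2 fold change of the start with LPS was −0.03 ± 0.11 in WT and −0.40 ± 0.11 in AhR-KO, neither of them a DAR. The alveolar and macrophage marker sums above moved in the same direction as this start between genotypes at rest, and their part was not tested.

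With LPS, 2 of the 12 F10 peaks (16.7%) were called higher in AhR-KO, near the 13.4% of all tested peaks, and 0 lower. The interaction was negative at 11 of 12, with a median of −0.39, and the peaks 15.4 and 9.05 kb upstream and 26 kb downstream of the start passed the p threshold (−0.41, −0.50 and −0.45, adjusted p = 0.0337, 0.0108 and 0.031) without reaching the fold threshold. LPS lowered 6 of the 12 (50%) in AhR-KO, by 0.60 to 1.40, against 21.5% of all tested peaks, and 1 (8.33%) in WT, against 21.6%. That 1 was the peak 15.4 kb upstream (chr8:13021628-13022282), which went in WT from 17.1 ± 1.97 to 8.57 ± 1.01 CPM, and in AhR-KO from 28.6 ± 2.88 to 10.8 ± 1.71 (adjusted p = 4.16e-11 and 1.25e-15). The next peak, 14 kb upstream (chr8:13023229-13023478), moved the opposite way, with 0 to 0.506 CPM (median 0.185) in WT unstimulated, 0.381 to 0.746 (median 0.585) in AhR-KO unstimulated, 1.69 to 2.397 (median 1.84) in WT LPS and 4.01 to 4.87 (median 4.18) in AhR-KO LPS. LPS libraries stood above unstimulated ones in both genotypes, with log2 fold changes of 3.07 ± 0.25 and 2.91 ± 0.19, and AhR-KO was 2.18-fold higher than WT with LPS (adjusted p = 1.5e-07).

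The F10 window takes in neighbours of the same cascade, so not each of its peaks need belong to F10. The nearest protein-coding start of the peaks 15.4, 14, 11.4 and 9.05 kb upstream was that of F7, the factor VII gene, and the peak at 11.4 kb lay over it. That F7 start peak had 5.66 ± 1.22 CPM at rest in WT and 10.5 ± 1.92 at rest in AhR-KO, with no overlap (0.92 ± 0.13, adjusted p = 8.26e-07). The peak 26 kb past the F10 start (chr8:13062851-13063705) lay in Proz, the protein Z gene, whose start was also the nearest of the peaks 15.4 and 20.5 kb past the F10 start, and had 3.04 to 5.002 CPM (median 4.06) in WT unstimulated and 7.08 to 7.86 (median 7.26) in AhR-KO unstimulated (0.85 ± 0.11, adjusted p = 3.48e-08). The whole start peak of F10 held 1 match each to the AhR-ARNT core, the C/EBP motif and the NF-kB motif. The 250 bases before the F10 start, shown because this was the 1 start of the 7 called between genotypes at rest, held no match to the 6 motifs.
F10 promoter, chr8:13037058-13037307: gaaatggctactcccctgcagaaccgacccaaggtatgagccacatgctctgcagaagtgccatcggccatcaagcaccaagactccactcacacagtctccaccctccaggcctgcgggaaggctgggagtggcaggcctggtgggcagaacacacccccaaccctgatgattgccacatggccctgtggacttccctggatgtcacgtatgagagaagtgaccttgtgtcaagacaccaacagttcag

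**Figure D4:**
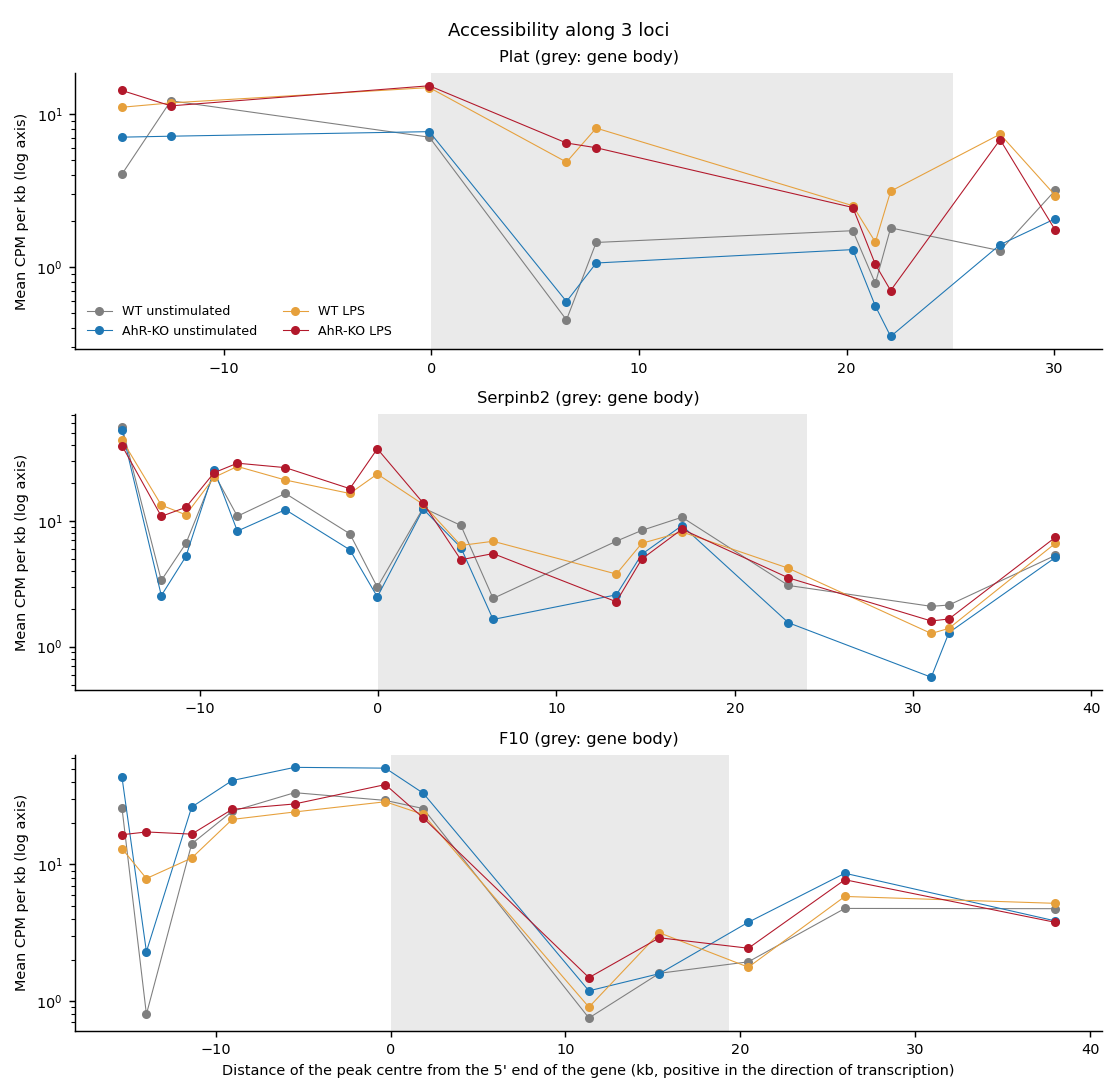
Mean CPM per kb of each peak (log axis) in the 4 groups against the distance of its centre from the 5′ end of Plat, Serpinb2 or F10 in kb, with the gene body in grey; lines only link the points of a group. At Plat the LPS groups lie above the unstimulated groups through most of the gene, at Serpinb2 the groups part most at the start, and at F10 unstimulated AhR-KO is highest from the start upstream except 14 kb before it.

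Thbs1, the thrombospondin-1 gene (chr2:118111876-118127133, + strand), opened with LPS along its body and behind it. In both genotypes 6 of its 8 peaks were higher with LPS, by 0.67 to 2.05 in WT and by 0.64 to 2.82 in AhR-KO, and 5 of the 6 were shared. These shares of 75% stand beside 25.4% (WT) and 27.3% (AhR-KO) of all tested peaks. The exon peaks 6.26, 10.8 and 11.6 kb past the start were low, with WT unstimulated means of 0.399, 0.376 and 0.253 CPM. The first of these held the value of 2.05. WT LPS libraries had a broad peak called there in 0, 1 and 1 of 6, and AhR-KO LPS libraries in 2, 2 and 0. The start peak (chr2:118111027-118112163) had 8.43 to 11.2 CPM (median 9.33) in WT unstimulated, 6.25 to 9.03 (median 8.01) in AhR-KO unstimulated, 11.8 to 14.99 (median 14.2) in WT LPS and 11.01 to 13.6 (median 12.3) in AhR-KO LPS. LPS groups did not overlap the unstimulated group of their genotype, and genotypes overlapped. The rise was 0.49 ± 0.09 in WT, under the fold threshold, and 0.64 ± 0.09 in AhR-KO (adjusted p = 8.92e-06 and 6.73e-08), and the AhR-KO call was lost without AhR-KO unstimulated replicate 1 (0.58).

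The peak directly behind Thbs1, 16 kb past its start (chr2:118127215-118128608), had 1.04 to 1.39 CPM (median 1.27) in WT unstimulated, 0.593 to 0.869 (median 0.740) in AhR-KO unstimulated, 3.49 to 7.12 (median 4.56) in WT LPS and 4.02 to 6.53 (median 5.59) in AhR-KO LPS. At rest the AhR-KO libraries were below all WT libraries (−0.74 ± 0.22, adjusted p = 0.00623), and the genotypes overlapped with LPS (0.13 ± 0.14). LPS raised it 3.87-fold in WT and 7.07-fold in AhR-KO (adjusted p = 1.73e-12 and 1.6e-16), and the interaction was 0.87 ± 0.26 (adjusted p = 0.0185). A small peak 7.85 kb upstream (chr2:118103836-118104209), at 0.757 ± 0.191 CPM in WT unstimulated, was lower in AhR-KO at rest (−0.85 ± 0.26, adjusted p = 0.008) and lower with LPS in WT (−0.74 ± 0.24, adjusted p = 0.00838).

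Other genes of the pathway were read at their start peaks. Of 28 listed genes, 22 had one, and plasminogen itself (Plg), prothrombin (F2), Serpinf2, Vtn, Cpb2 and Mmp9 had none. In AhR-KO at rest 1 was higher (F7, above) and 2 were lower, and with LPS 3 were higher and 2 were lower. Serpine2, a serpin of both activators, was lower in AhR-KO at rest, at 3.81 ± 0.53 against 5.93 ± 1.31 CPM (−0.61 ± 0.14, adjusted p = 0.000405). Tfpi2, a matrix-bound inhibitor of plasmin, was lower in AhR-KO at rest (14.3 ± 1.197 against 22.4 ± 2.50 CPM, −0.65 ± 0.09, adjusted p = 2.93e-07) and with LPS (8.23 ± 0.87 against 13.6 ± 2.22 CPM, −0.73 ± 0.09, adjusted p = 5.32e-08). Procr, the protein C receptor gene, was higher in AhR-KO with LPS (25.2 ± 3.31 against 15.8 ± 1.91 CPM, 0.68 ± 0.08, adjusted p = 7.6e-09). F5, the factor V gene, was also higher there (25.03 ± 1.99 against 16.6 ± 0.76 CPM, 0.59 ± 0.06, adjusted p = 1.28e-09). Thbd, which encodes the anticoagulant receptor thrombomodulin, was lower in AhR-KO with LPS (22.7 ± 1.88 against 43.8 ± 8.30 CPM, −0.95 ± 0.08, adjusted p = 8.69e-11) and was the 1 start peak of the 22 called in the interaction (−0.98 ± 0.11, adjusted p = 5.67e-07). LPS raised 2 of the 22 and lowered 4 in WT, and raised 3 and lowered 6 in AhR-KO. Of all 12992 start peaks, LPS lowered 6.3% in WT cells and 11.1% in AhR-KO cells. The interaction called 1.02% of them higher and 2.44% lower.

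Motif matches were counted on both strands in the central 300 bases of each peak. AP-1 matches (TGANTCA) were in 18 of 78 windows, against 18.1% of all tested peaks, and in 39 of the 78 whole peaks, against 32.5%. C/EBP matches (TTGCNNAA) were in 15 windows, against 15.8%, and in 35 whole peaks, against 30.7%. The AhR-ARNT core GCGTG was in 15 windows, against 16.3%, and in 32 whole peaks, against 30.4%. NF-kB matches were in 6 (7.3% of all), PU.1 matches (GAGGAAGT) in 4 (7.49%) and CRE matches (TGACGTCA) in 1 (0.48%). The AP-1 and CRE patterns cannot match the same letters. AP-1 matches were in 8 of the 27 windows that rose with LPS in WT, against 35.6% of all peaks that rose there, and in 0 of the 6 that fell, against 7.58%. The AhR-ARNT core was in 2 of the 9 windows lower in AhR-KO at rest, against 14.3% of all such peaks, in Serpinb2 and F3. Over whole peaks it was in 4 of these 9, with another of Serpinb2 and the Plat intron peak added. RefSeq promoter sequences were matched for 4 of the 7 genes, with none for Plau, Plat and Thbs1, and the Plaur promoter held 1 AP-1 and 1 C/EBP match. AP-1 matches were in 6.75% of the 250-base stretches before all RefSeq starts, and C/EBP matches in 9.56%. A match is a stretch of letters, not a bound site.

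Each start peak was also set beside the start peaks of all other protein-coding genes by Pearson's r of log2 CPM over the 24 libraries, which share the group structure, so the values only describe which genes followed the same course. The nearest to Serpinb2 was Il12a (r = 0.985), the nearest to F3 was Arg2 (0.974), to Plat Ifi205 (0.97), to F10 Prcc (0.963), to Plaur Ier3 (0.962) and to Thbs1 Cpne3 (0.933). The second in each case were Sestd1 (0.982), Gipr (0.968), Nod2 (0.967), Rras (0.959), Zswim4 (0.945) and Traf3ip2 (0.929). For Plau the nearest values were lower, with Inpp4a at 0.854 and Setd4 at 0.815.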

How the data were processed

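ATAC-seq was measured in 24 libraries of mouse BMDMs. Per the file headers, the authors counted read pairs with featureCounts 2.0.1 in consensus peaks on the mm10 build, assigning a pair to every peak it overlapped by a fraction of at least 0.2, so the deposited values are raw counts. The authors merged the peaks of all libraries with the nf-core atacseq pipeline and also deposited broad peaks called per library with MACS2, whose last column is the −log10 q-value. Replicates were not pooled, and the study describes those of a group as separate animals of 1 experiment.

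Here, peaks were placed with the GENCODE annotation of mm10, and their overlap with the broad peaks of each library was found with bedtools 2.31.1. The counts were filtered with filterByExpr, normalized with TMM and fitted with edgeR 4.0.16 in R 4.3.3 (quasi-likelihood, robust, trended dispersion, group as the only term, all 24 libraries). P-values were two-sided and adjusted by the Benjamini-Hochberg method over 174193 peaks. The SE of a log2 fold change is its size over the square root of F. CPM used the library totals (8.54 to 34.6 M counts) scaled by TMM, and the depth of each library limits how small a change can be called. Alternatives were DESeq2 1.42.0, RLE scaling, no filter, other fold thresholds and windows, libraries thinned to the lowest total, a replicate block and fits without single libraries. The procedure was tested on simulated data.

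Within groups, the closest pair of libraries had a chi-square of 1.26 per peak, above the 1 of sampling noise, so none was a copy of another's reads. The value cannot show that libraries came from different cultures. Each library counted once because the study describes separate animals. Peaks named with values were the start peak of each gene and, per gene and comparison, the DAR with the smallest p in each direction, and exceptions are stated. The genes, lists and tests were chosen with earlier results of these data known. A gene of the pathway list, which its counts include, and a marker list are not reported here.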

Additional observations from a re-analysis of the deposited data

Results flagged for a closer look

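Among 108 groups of 6 libraries (27 named peaks in 4 groups), 7 had 1 library whose gap to the nearest other took more of the range than Dixon's critical value allows, and chance flags about 1 in 20. The AhR-KO unstimulated library numbered 6 had 8.14 CPM at the peak upstream of Plau (next 6.49), and the AhR-KO LPS library numbered 6 had 8.51 CPM at the Plau start (next 11). The AhR-KO LPS library numbered 5 had 29.9 CPM at the peak downstream of Plaur (next 19.5), and the one numbered 3 had 8.44 CPM at the peak 12.5 kb upstream of Plat (next 7.09). At the Serpinb2 exon peak the libraries numbered 5 stood apart in 3 groups, with 1.74 CPM in WT unstimulated (next 3.62), 2.19 in AhR-KO unstimulated (next 1.46) and 1.91 in AhR-KO LPS (next 1.27).

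For 9 named peaks the genotype effect differed between LPS and rest by the interaction test in edgeR. On the log2 scale the differences were −0.75 at the peak upstream of Plaur, 0.72 at the peak 12.5 kb upstream of Plat, 0.76, 0.94 and 0.72 at the upstream, start and exon peaks of Serpinb2, 0.95, 0.67 and 0.89 at the peaks 13.3, 16 and 18 kb past the F3 start, and 0.87 at the peak behind Thbs1.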

How the results depend on the processing

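In the order AhR-KO against WT at rest, with LPS, LPS in WT, LPS in AhR-KO and interaction, 24, 14, 33, 41 and 11 peaks were DARs. A fold threshold of 2 gave 6, 4, 18, 24 and 1. No fold threshold gave 42, 35, 57, 54 and 17. A window of 5 kb, which holds 47 tested peaks, gave 11, 8, 19, 27 and 7. Only peaks whose nearest protein-coding start was the gene's own, 58 of them, gave 16, 9, 27, 32 and 10, and at rest 7 of the 16 were higher in AhR-KO and 9 lower, against 15 and 9. RLE scaling, no filter, DESeq2, thinning, fits on 2 groups and leaving out both WT libraries numbered 6 (chosen after seeing the data) kept every count they gave within 1.5 times (2-group fits give no interaction). Leaving out each library in turn gave 21 to 26, 11 to 15, 32 to 34, 38 to 43 and 9 to 11. Region and library pairs with a called broad peak were 1300, with 1069 when 0.5 of the region had to be covered and 1242 at a −log10 q of at least 2.

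Values near 0 changed sign. For the interaction at the Plaur start this was −0.0255 under RLE scaling, −0.0253 under DESeq2 and −0.029 to 0.079 without 1 library. It was 0.037 for the interaction at the Plat start after thinning, and −0.054 to 0.013 without 1 library for LPS in WT at the F10 start. None of these was a call, and the cause was not tested.

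Same-numbered libraries correlated at −0.13 to 0.29 in their deviations from group means, with not every pair above 0.1 in any pair of groups, so the numbers were not taken as pairs. Between the WT groups it was 0.16 to 0.29 for 5 of 6 numbers, and 4 of 6 libraries correlated best with their own, a hint from the data and not the design. With the replicate block the counts were 24, 14, 34, 40 and 11, and the call of 92 of 92 named values was kept. The block gave each number 1 effect shared by all groups, so it could not test pairs within a genotype, which were not fitted. Under other settings some named calls were lost. The interaction at the Serpinb2 exon peak was lost under RLE scaling (0.68, adjusted p = 0.0656), no filter (0.72, 0.0511), DESeq2 (0.67, 0.058), thinning (0.60, 0.299) and without both WT libraries numbered 6 (0.67, 0.0928). DESeq2 also lost the interaction 18 kb past the F3 start (0.85, 0.0682). Thinning lost LPS in AhR-KO at the Plat intron peak 22.1 kb past the start (0.98, 0.0896) and at the Thbs1 start (0.50, 0.000291) and genotype at rest 16 kb past the F3 start (−0.57, 0.000727), and it gained the interaction at the F3 start (0.63, 0.000184). Depth limits the low peaks, since 1 CPM is 8.54 counts in the shallowest library. RLE scaling moved the median log2 fold change of all peaks by 0.06 at most. It turned the balance of calls over all peaks in some comparisons. At rest, 17332 higher and 22015 lower in AhR-KO became 20676 and 19366. For the interaction, 10147 higher and 7985 lower became 8660 and 9574. DESeq2 turned both in the same way. The shares of all tested peaks given above are those under TMM.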
